A study of Homo sapiens with 36 samples.

Results

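The genes described here are 34 members of the pathways that build cholesterol and fatty acids, out of 58219 genes listed in the RNA data and 43582 in the footprint data. They were chosen by name, as genes controlled by the sterol-regulated transcription factors SREBP-1 and SREBP-2, and all 34 were found in every table. The choice was made with results of these same comparisons known, and which values prompted it is not recorded. The differences between treatments are therefore given as a description of these libraries, and no test was made of the list as a whole. The cells were WiT49, a single line grown from an anaplastic Wilms tumor, an embryonal tumor of the kidney. Cultures were exposed to actinomycin D (actD, a compound that binds DNA and blocks transcription) at 2 nM or to its solvent dimethyl sulfoxide (DMSO), for 6 h, for 72 h, or for 2 weeks as 2 cycles of 7 days with 3 days of additive and 4 days of plain medium. Total RNA and ribosome footprints, the RNA fragments that translating ribosomes shield from nuclease, were sequenced from 3 libraries per group, 12 groups and 36 libraries in all. The labels do not say whether replicates were separate cultures, so the p-values measure the spread between these libraries only. For RNA at 2 weeks the labels conflict, since titles give the opposite treatment from library names. Those libraries are grouped here by library name, written as named actd or named dmso, and every direction given for them turns around if the titles are right.

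Cells make cholesterol from acetyl-CoA through mevalonate, isoprenoid units, squalene and a series of sterol intermediates, and they make fatty acids from the same acetyl-CoA. The precursors of SREBP-1 and SREBP-2 (genes SREBF1 and SREBF2) sit in the endoplasmic reticulum bound to the escort protein SCAP. When sterols are plentiful, INSIG proteins hold SCAP there. When sterols fall, SCAP carries the precursors to the Golgi apparatus, proteases release their active parts, and these enter the nucleus and raise transcription of the synthesis enzymes and of INSIG1 itself. Dividing tumor cells draw on both pathways for membranes.

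SREBPs are known to work at promoters together with NF-Y, a factor that binds CCAAT boxes, and with Sp1, which binds GC boxes. The stretches upstream of 4 members follow, because HMGCS1 had the largest RNA difference relative to its error at 72 h, NSDHL showed the densest run of CCAAT boxes among them, INSIG1 differed in opposite directions at 72 h and, by the library names, at 2 weeks, and SREBF2 was the single member with a match to the sterol element searched. Each starts 250 bases before a RefSeq gene start (GRCh38.p14) and stops before the first exon base of a coding gene in GENCODE release 29. Capitals mark CCAAT, its reverse complement ATTGG, and TCACNCCAC.
HMGCS1 (chr5:43313513-43313662, minus strand): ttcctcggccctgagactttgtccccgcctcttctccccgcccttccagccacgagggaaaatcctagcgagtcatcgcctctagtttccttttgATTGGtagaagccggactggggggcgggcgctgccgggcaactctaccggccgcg
NSDHL (chrX:152830813-152830966, plus strand): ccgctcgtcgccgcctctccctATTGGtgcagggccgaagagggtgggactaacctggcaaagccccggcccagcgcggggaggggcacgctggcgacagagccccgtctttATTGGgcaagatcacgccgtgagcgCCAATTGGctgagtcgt
INSIG1 (chr7:155297628-155297775, plus strand): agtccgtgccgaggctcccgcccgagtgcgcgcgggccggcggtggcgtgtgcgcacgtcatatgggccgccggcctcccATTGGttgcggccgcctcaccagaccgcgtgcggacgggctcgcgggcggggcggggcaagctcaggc
SREBF2 (chr22:41832855-41833078, plus strand): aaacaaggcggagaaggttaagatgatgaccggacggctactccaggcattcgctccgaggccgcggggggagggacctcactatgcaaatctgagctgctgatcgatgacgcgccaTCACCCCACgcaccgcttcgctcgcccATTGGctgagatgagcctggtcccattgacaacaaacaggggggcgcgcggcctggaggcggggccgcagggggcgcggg

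The NSDHL stretch held 4 CCAAT matches, the last pair overlapping on opposite strands, and the HMGCS1, INSIG1 and SREBF2 stretches held 1 each. Upstream windows of 250 bases were found for 30 of the 34 members. On either strand, CCAAT was present upstream of 20 of these 30 members (66.7%) and of 37.0% of the 27305 genes with a window, and GGGCGG, the GC box, upstream of 29 members (96.7%) and 46.2% of genes. TCACNCCAC was present upstream of 1 member (3.33%) and 1.09% of genes, and the E-box CACGTG upstream of 3 members (10%) and 7.73% of genes. A gene counted if any of its windows matched, and some members had more than 1 window. The 27305 genes were not limited to coding or expressed genes, whereas all members had RNA counts here. The shares therefore do not show whether members differ from other expressed coding genes. A match to letters is not a bound site, and the absence of a match says only that those letters are not in the window.

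RNA libraries held 40221994 to 69240041 counts, and the footprint libraries 152556 to 1281039. Of these, the members took 107530 to 212218 counts per RNA library and 44 to 782 per footprint library. All 34 members were above 0 in every RNA library, with 223 counts as the lowest single value, whereas 5, 10 and 19 members were above 0 in all 6 footprint libraries of 6 h, 72 h and 2 weeks. The labelled cell type was checked with genes of Wilms tumor and nephron progenitors, of which LIN28B and IGF2 exceeded 1 count-per-million (CPM, scaled library) in every RNA library. SIX2, PAX2, SALL1, EYA1 and CITED1 stayed under 1 CPM in all of them. Of the lists for other cells, the highest single value at 72 h was 0.42 CPM for PTPRC of the 4 blood genes, 0.277 for VWF of the 3 endothelial genes, 0.334 for APOA1 of the 3 hepatocyte genes and 0.314 for PLIN1 of the 3 adipocyte genes. At 6 h VWF reached 1.24 CPM. Mitochondrial ribosomal RNA took 28.2% ± 3.86 of RNA counts in actD and 19.1% ± 3.51 in DMSO at 72 h (SD, n = 3 each); its part in the results at 72 h was not tested.

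In the DMSO libraries at 72 h, levels per length spanned a wide range. The highest belonged to SCD, the desaturase that makes monounsaturated fatty acids, with 121 ± 12.6 CPM per kb of exon (SD, n = 3). CYP51A1, which removes a methyl group from lanosterol, followed with 68.7 ± 8.85, HMGCS1 with 47.6 ± 8.73, ACLY with 44.7 ± 23.4 and STARD4 with 35.6 ± 9.33 CPM per kb. HMGCS1 and ACLY did not differ beyond their spread. The lowest were MVK at 1.93 ± 0.393, INSIG2 at 1.94 ± 0.496 and LPIN1 at 1.94 ± 0.211 CPM per kb, which lay within each other's spread. At 6 h the order began with ACLY (81.3 ± 10.4 CPM per kb), SCD (70.9 ± 3.73) and CYP51A1 (54.3 ± 6.72). Among the 2-week libraries named dmso it began with SCD (100.4 ± 1.99), CYP51A1 (61.2 ± 1.56) and ACLY (55.0 ± 1.53). Each table has its own scaling, so levels are compared within a time point only.

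**Figure D1:**
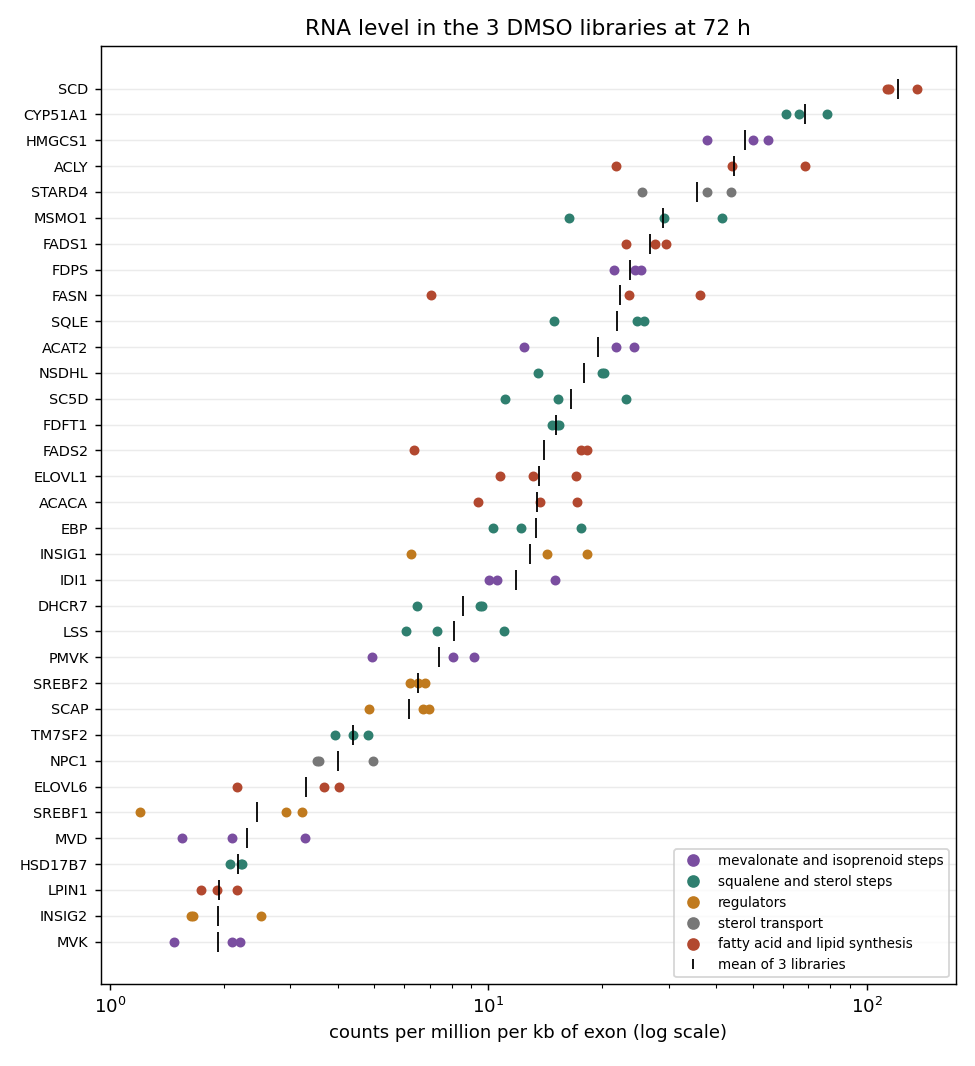
RNA level of each member in the 3 DMSO libraries at 72 h, as CPM per kb of exon on a log axis. Points are libraries, ticks are means, and colours are pathway roles; SCD is highest at 121 and MVK lowest at 1.93 CPM per kb.

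The members differed in how evenly the vehicle libraries agreed. At 72 h the coefficient of variation over the 3 DMSO libraries had a median of 24.4% and ran from 2.41% for FDFT1 to 65.7% for FASN. At 6 h the median was 11.4%, and at 2 weeks in the libraries named dmso it was 6.78%. DMSO replicate 3 gave the lowest of the 3 DMSO values for 22 of 34 members at 72 h and for 21 of 34 at 6 h. In the 72 h library FASN stood at 66.1 CPM against 220.5 and 339.8 in the other DMSO libraries, FADS2 at 70.3 against 200.4 and 194, and SREBF1 at 9.65 against 23.5 and 25.8. Among actD libraries replicate 3 was also the lowest for 17 of 34 members, with FASN at 57.9 CPM against 118 and 122. These counts of lowest values were made for the members only, and the share over all genes was not counted.

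In RNA at 72 h 27 of 34 members had a lower and 7 a higher mean in actD, and the median log2 fold change was -0.63 against 0.018 over all genes tested. By edgeR, with p-values from its quasi-likelihood test adjusted over all genes by Benjamini and Hochberg, 0 members and 0.00472% of genes were called. At an unadjusted p under 0.05, 18 of 34 were lower, where 7.78% of all genes tested were, and 0 were higher, where 5.27% were. All actD libraries lay below all DMSO libraries for 19 members, compared with 10.3% of all genes, and above them for 0 members, compared with 10.5%. With DESeq2 on the same 6 libraries 9 members were called lower, as were 2.57% of all genes. With 1 edgeR fit over all 18 RNA libraries 14 were, as were 3.61% of all genes. That fit takes 1 spread per gene from all 3 time points, so its calls do not rest on the 72 h spread alone. In DMSO the members' median coefficient of variation was 24.4% at 72 h, 11.4% at 6 h and 6.78% at 2 weeks (named dmso). The members' share of protein-coding counts was 0.318% to 0.411% in the actD libraries and 0.437% to 0.581% in the DMSO libraries, without overlap. With each library left out in turn, the count at the unadjusted threshold ran from 13 to 22 members and the median from -0.73 to -0.58. It was 22 without DMSO replicate 3 (9.5% of all genes), and 13 without actD replicate 2 (4.45% of all genes) or without DMSO replicate 1 (6.09% of all genes).

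**Figure D2:**
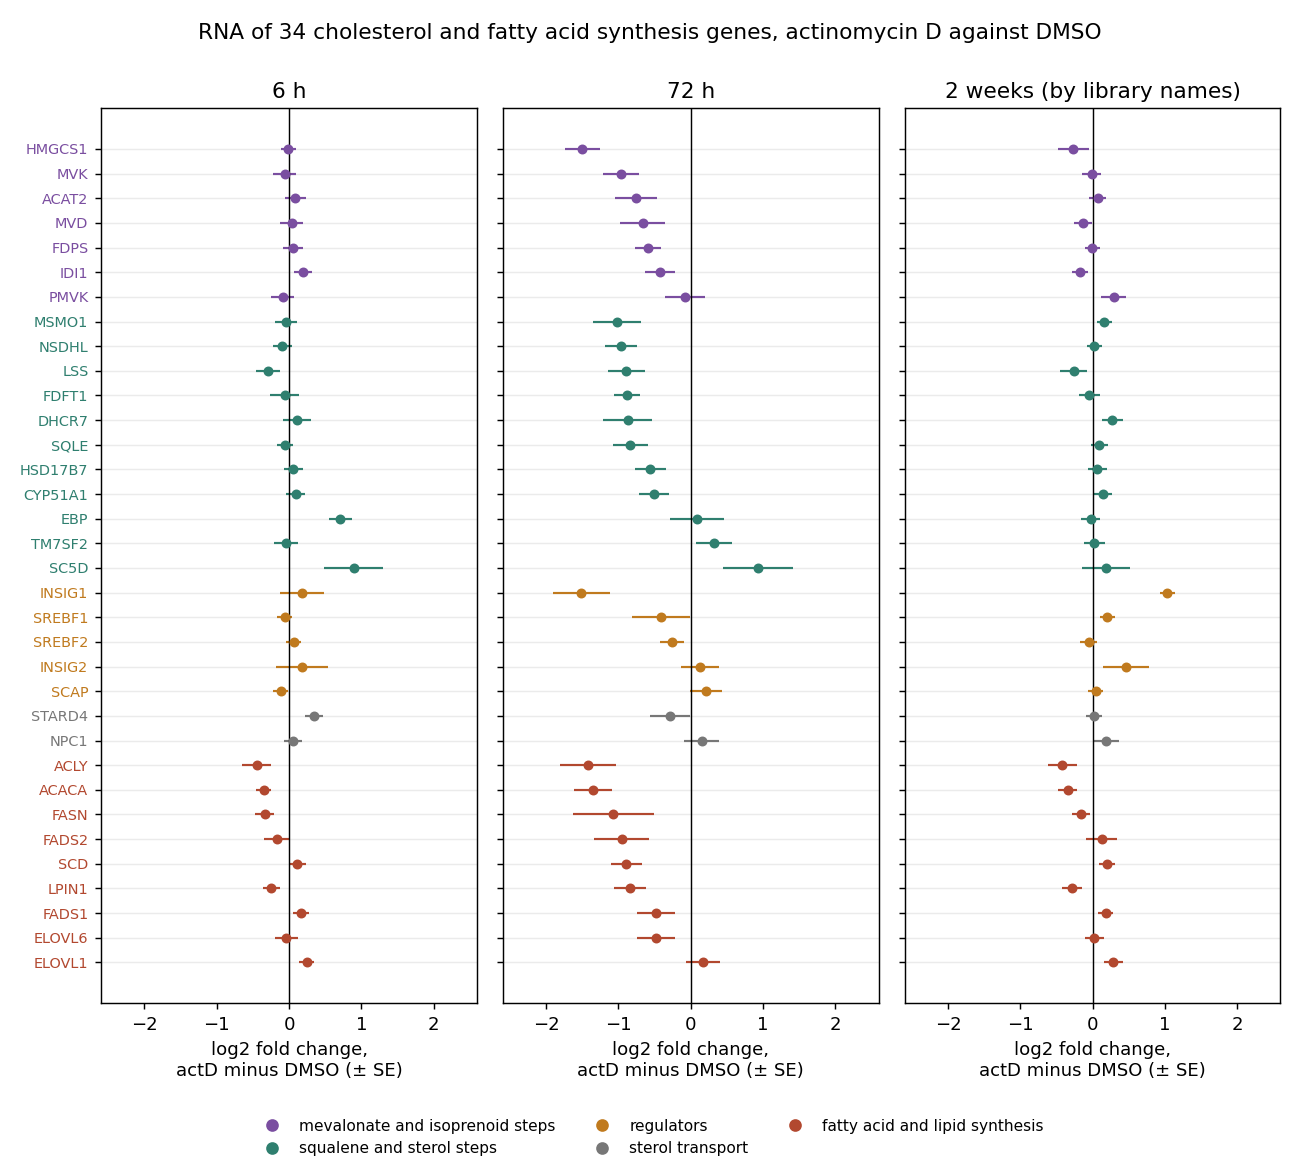
Log2 fold change in RNA, actD minus DMSO, with its standard error, for the 34 members at 6 h, 72 h and 2 weeks, coloured by role; the 2-week direction follows the library names and is the opposite by the titles. At 72 h 27 members lie left of 0, while at 6 h 17 lie on each side.

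The mevalonate and isoprenoid steps were all lower in mean at 72 h, 7 of 7. At an unadjusted p under 0.05, 4 of them were lower (HMGCS1, MVK, ACAT2 and FDPS), where 7.78% of all genes tested were. HMGCS1 makes HMG-CoA, the entry compound of the mevalonate branch (ENSG00000112972.14, GRCh38 chromosome 5, 43289395 to 43313512). Its RNA was 65.3, 76.4 and 95.7 CPM in actD and 258, 235 and 178 CPM in DMSO. The lowest DMSO library was above the highest actD library, and the log2 fold change was -1.50 (SE 0.24; edgeR adjusted p = 0.190). HMGCS1 had the smallest adjusted p of the list under DESeq2 (2.72e-05) and in the single fit over all RNA libraries (0.000946).
MVK, the kinase that phosphorylates mevalonate, was at 6.98, 6.73 and 5.47 CPM in actD and 13.6, 14.3 and 9.59 CPM in DMSO. The groups did not overlap (log2 fold change -0.97, SE 0.25; edgeR adjusted p = 0.261). MVK overlaps MMAB on the opposite strand, and the use of strand in counting is not stated. The remaining 5 spanned -0.76 for ACAT2, which joins acetyl-CoA units, to -0.08 for PMVK, the kinase that acts after MVK.

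Of the steps from squalene to cholesterol, 8 of 11 were lower at 72 h at an unadjusted p under 0.05, where 7.78% of all genes tested were. FDFT1, squalene synthase, was at 43.4, 47.1 and 36.9 CPM in actD and 76.4, 79.1 and 80.0 CPM in DMSO. Its DMSO libraries were the closest together of any member, and the log2 fold change was -0.89 (SE 0.18; edgeR adjusted p = 0.215). NSDHL, which helps strip the methyl groups at carbon 4 of the sterol, was at 17.6, 17.9 and 19.4 CPM in actD and 40.3, 40.0 and 27.1 CPM in DMSO. The groups did not overlap (log2 fold change -0.97, SE 0.22; edgeR adjusted p = 0.241). LSS, which closes squalene epoxide into lanosterol, was at 29.6, 35.9 and 29.7 CPM in actD and 53.1, 79.5 and 43.9 CPM in DMSO, again without overlap (log2 fold change -0.89, SE 0.26; edgeR adjusted p = 0.276).
The others at this threshold were MSMO1 (log2 fold change -1.03), DHCR7 (-0.87), SQLE (-0.84), HSD17B7 (-0.56) and CYP51A1 (-0.51), the last overlapping 2 annotated genes on its own strand. EBP, TM7SF2 and SC5D, which also act on the sterol ring, had positive values of 0.09, 0.32 and 0.93 with overlapping groups. TM7SF2 overlaps VPS51 on its own strand. SC5D ranged from 86.7 to 305 CPM over its actD libraries and from 61.7 to 128 CPM in DMSO.

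**Figure D3:**
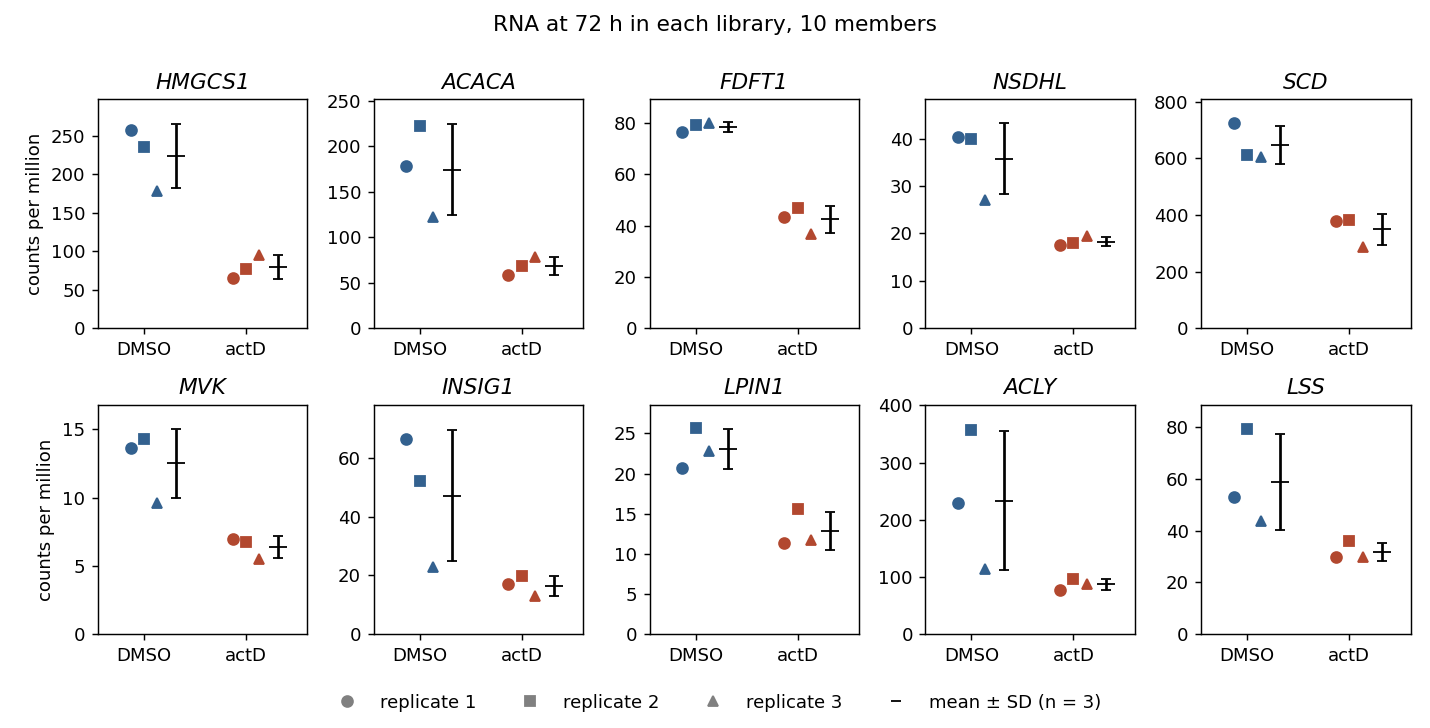
RNA at 72 h in each library, in CPM from 0, for the 10 members with the largest log2 fold change relative to its standard error. Symbols are replicates and bars the mean ± SD of 3 libraries; in every panel the 3 actD libraries lie below the 3 DMSO libraries, which sit between 178 and 258 for HMGCS1.

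Among the regulators, INSIG1 stood at 16.9, 19.7 and 12.9 CPM in actD and 66.6, 52.1 and 22.8 CPM in DMSO at 72 h (ENSG00000186480.12, GRCh38 chromosome 7, 155297776 to 155310235). The arms did not overlap, but DMSO replicate 3 was close to the actD libraries. The log2 fold change of INSIG1 was -1.51 (SE 0.39; edgeR adjusted p = 0.263), and it was -1.85 without that library. SREBF2, the SREBP-2 precursor, was lower by a small amount without overlap, at 40.0, 41.0 and 42.1 against 46.9, 49.4 and 51.3 CPM (log2 fold change -0.26, SE 0.16; edgeR adjusted p = 0.530). SREBF1 (-0.41), SCAP (0.21) and INSIG2 (0.13) overlapped between the groups. The sterol carriers overlapped too: STARD4, which moves cholesterol between membranes, had -0.28, and NPC1, which exports it from lysosomes, had 0.15.

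In fatty acid and lipid synthesis 5 of 9 members were lower at 72 h at an unadjusted p under 0.05 (7.78% of all genes). In mean, 8 of 9 were lower. ACACA, acetyl-CoA carboxylase, was at 58.2, 69.0 and 78.2 CPM in actD and 178, 223 and 122 CPM in DMSO (ENSG00000278540.4, GRCh38 chromosome 17, 37084988 to 37406818). Every DMSO library exceeded every actD library, and the log2 fold change was -1.35 (SE 0.26; edgeR adjusted p = 0.204). ACLY, which splits citrate to supply acetyl-CoA, was at 77.2, 95.8 and 87.6 CPM in actD and 229, 357 and 113 CPM in DMSO. Its DMSO libraries were widely spread while its actD libraries lay close together (log2 fold change -1.42, SE 0.39; edgeR adjusted p = 0.265).
SCD was at 378, 382 and 287 CPM in actD and 726, 612 and 606 CPM in DMSO, without overlap (log2 fold change -0.89, SE 0.22; edgeR adjusted p = 0.257). LPIN1, a phosphatidate phosphatase, was at 11.4, 15.6 and 11.7 CPM in actD and 20.7, 25.7 and 22.8 CPM in DMSO (log2 fold change -0.84, SE 0.22; edgeR adjusted p = 0.263). FASN, the synthase that builds palmitate, had a mean difference as large as these (log2 fold change -1.08), but its groups overlapped and its SE was 0.56. FADS2, FADS1 and ELOVL6, which desaturate and lengthen fatty acids, had -0.96, -0.48 and -0.48, and ELOVL1, an elongase of very long chains, had 0.17. FADS1 and FADS2 overlap each other on opposite strands, and FADS2 also overlaps FEN1 on its own strand.

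At 6 h the members were centred on no difference, with 17 lower and 17 higher and a median log2 fold change of 0.012 against 0.021 over all genes. By edgeR 0 were called, as were 0% of all genes. Unadjusted, 2 were lower at p under 0.05 (4.54% of all genes) and 3 higher (3.67% of all genes). The groups did not overlap for 4 members that were lower (8.17% of all genes) and 6 that were higher (7.66% of all genes). EBP, an isomerase of the sterol ring, was at 28.9, 34.3 and 36.7 CPM in actD and 24.3, 19.2 and 17.6 CPM in DMSO. The groups did not overlap (log2 fold change 0.71, SE 0.16; edgeR adjusted p = 0.322). EBP was the 1 member that DESeq2 called at 6 h (adjusted p = 0.0263), where it called 0.273% of all genes higher.
STARD4 was also higher, at 154, 141 and 160.2 CPM against 118, 134 and 105.8 CPM (log2 fold change 0.34, SE 0.13; edgeR adjusted p = 0.568). ELOVL1 was at 40.7, 38.1 and 38.4 CPM against 34.3, 31.9 and 32.8 CPM (log2 fold change 0.24, SE 0.10; edgeR adjusted p = 0.594). In both the actD libraries all lay above the DMSO libraries. With the opposite sign ACACA was at 131, 125 and 123 CPM in actD and 171, 151 and 161 CPM in DMSO (log2 fold change -0.35, SE 0.11; edgeR adjusted p = 0.489). FASN was at 354, 354 and 313 CPM against 406, 401 and 483 CPM (log2 fold change -0.34, SE 0.13; edgeR adjusted p = 0.576). SC5D had a larger mean difference (0.89, SE 0.41), but its DMSO libraries ran from 41.8 to 164 CPM while its actD libraries stood between 176 and 178 CPM.

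Whether the effect differed between 72 h and 6 h was taken from the treatment-by-time term fitted over the 12 RNA libraries of both time points. In the 6 h libraries a fragment was worth more than 1 count, and what this does to the pooled fit was not tested. The median of the term over members was -0.66 against -0.030 over all genes, with 30 members negative and 4 positive. By edgeR 0 members were called, against 0.0165% of all genes. Unadjusted, 17 members were more negative at 72 h (5.18% of all genes) and 0 more positive (2.84% of all genes). HMGCS1 had a difference of -1.50 (SE 0.26; edgeR adjusted p = 0.143), SCD -1.03 (SE 0.23; edgeR adjusted p = 0.274) and ACACA -1.01 (SE 0.29; edgeR adjusted p = 0.438). DESeq2 called HMGCS1 and SCD, with 0.648% of all genes on that side. Without actD replicate 3 or DMSO replicate 3 of 72 h, edgeR called HMGCS1 as well (adjusted p = 0.0366 and 0.0304), with 0.119% and 0.0239% of all genes. INSIG1 differed by -1.72 with an SE of 0.54 (edgeR adjusted p = 0.479).

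**Figure D4:**
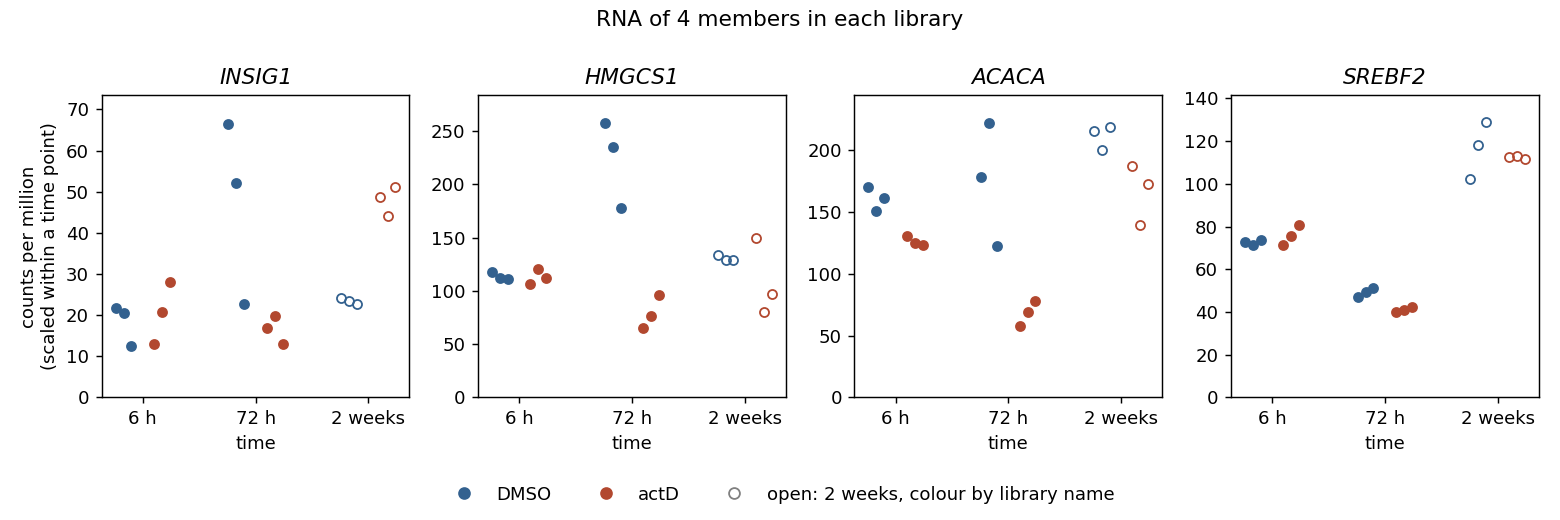
RNA of INSIG1, HMGCS1, ACACA and SREBF2 in each library at 6 h, 72 h and 2 weeks, in CPM scaled within a time point. Blue is DMSO and red actD, with open circles where colour follows the library name at 2 weeks, which the titles contradict; HMGCS1 overlaps between groups at 6 h and not at 72 h.

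In RNA of the 2-week libraries 13 members were lower and 21 higher in those named actd, with a median log2 fold change of 0.035 against -0.024 over all genes. By edgeR 0 were called, as were 0% of all genes. At an unadjusted p under 0.05, 1 member was lower (4.93% of all genes) and 1 higher (4% of all genes). The groups did not overlap for 1 member that was lower (7.83% of all genes) and 6 that were higher (7.86% of all genes). INSIG1 was at 48.8, 44.1 and 51.1 CPM in the libraries named actd and 24.1, 23.4 and 22.7 CPM in those named dmso. The groups were far apart relative to their spread, with a log2 fold change of 1.04 (SE 0.11; edgeR adjusted p = 0.0669), and DESeq2 called it (adjusted p = 3.07e-11) with 0.512% of all genes higher. The share of mitochondrial ribosomal RNA also differed, at 28.7% ± 2.72 for named actd against 21.3% ± 1.63 for named dmso (SD over 3 libraries), and its part was not tested. By the titles the INSIG1 value is -1.04, that is, lower in actD. INSIG1 was the single member whose difference exceeded 0.5 on the log2 scale at this time.
ACACA was at 187, 139.9 and 173 CPM in the libraries named actd and 216, 200.3 and 219 CPM in those named dmso, without overlap (log2 fold change -0.34, SE 0.14; edgeR adjusted p = 0.526). ELOVL1 was at 36.1, 41.6 and 31.4 against 27.0, 31.2 and 31.4 CPM (0.29, SE 0.13; edgeR adjusted p = 0.580), with the lowest and highest of the groups almost touching. ACLY was at 285, 165 and 196 against 296, 281 and 284 CPM (-0.42, SE 0.20; edgeR adjusted p = 0.582), and LPIN1 at 35.5, 29.3 and 25.8 against 40.1, 34.5 and 35.9 CPM (-0.29, SE 0.14; edgeR adjusted p = 0.593). Both overlapped between the groups. HMGCS1, lowest in the libraries named actd 2 and 3 at 80.0 and 97.0 CPM, was at 149 CPM in the first of them and at 129 to 134 CPM in those named dmso.

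Footprints covered few members. Of 34, 3 passed the filter on low counts at 6 h, 13 at 72 h and 11 at 2 weeks. MVK and HSD17B7 were listed at 0 in all 18 footprint libraries. ACLY was listed at 0 in all 6 libraries of 6 h and all 6 of 72 h, although its RNA was among the most abundant of the list, and held 4 to 11 counts per library at 2 weeks, so its zeros are given as listed values only. A count of 0 allows up to 3 counts, which is 2.70 to 37.3 CPM in the footprint libraries. The highest single value of any member was 234 counts, for FASN in a DMSO library of 72 h.

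At 72 h 0 of the 13 members were called by edgeR, against 3.79% of all genes. At an unadjusted p under 0.05, 1 was lower (13.1% of all genes) and 1 higher (14.2% of all genes), and the median log2 fold change was 0.11 against 0.074 over all genes. FASN held 73, 45 and 23 counts in actD and 234, 163 and 9 counts in DMSO, which after scaling put DMSO replicate 3 at 112 CPM and the other DMSO libraries at 529 and 546 CPM. The shallow DMSO replicate 3 lay within the actD range, and the log2 fold change was -2.24 (SE 0.75; edgeR adjusted p = 0.112). ELOVL1 was the member furthest in the other direction, with 64, 25 and 40 counts in actD and 7, 7 and 1 in DMSO (log2 fold change 1.93, SE 0.43; edgeR adjusted p = 0.0512). Its groups did not overlap, and it was called with scaling factors from protein-coding genes (adjusted p = 0.0491), in 1 fit over all footprint libraries (0.0293) and without actD replicate 3 (0.0409). Those fits called 2.14%, 1.13% and 4.43% of all genes higher. ELOVL1 passed the filter on low counts through its actD libraries, where it was high. Its non-overlap and these calls are therefore description only.
SCD held 110, 84 and 87 counts in actD and 127, 53 and 11 in DMSO (log2 fold change -0.31, SE 0.46; edgeR adjusted p = 0.682). SC5D held 63, 88 and 122 counts against 77, 38 and 11 (0.11, SE 0.44; edgeR adjusted p = 0.893), SREBF1 78, 28 and 34 against 45, 29 and 9 (-0.41, SE 0.44; edgeR adjusted p = 0.580), and EBP 75, 41 and 32 against 28, 17 and 2 (0.71, SE 0.52; edgeR adjusted p = 0.397). After scaling, the groups overlapped for all 4. HMGCS1 held 0 to 31 counts per library (log2 fold change -0.51, SE 0.70; edgeR adjusted p = 0.660).

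**Figure D5:**
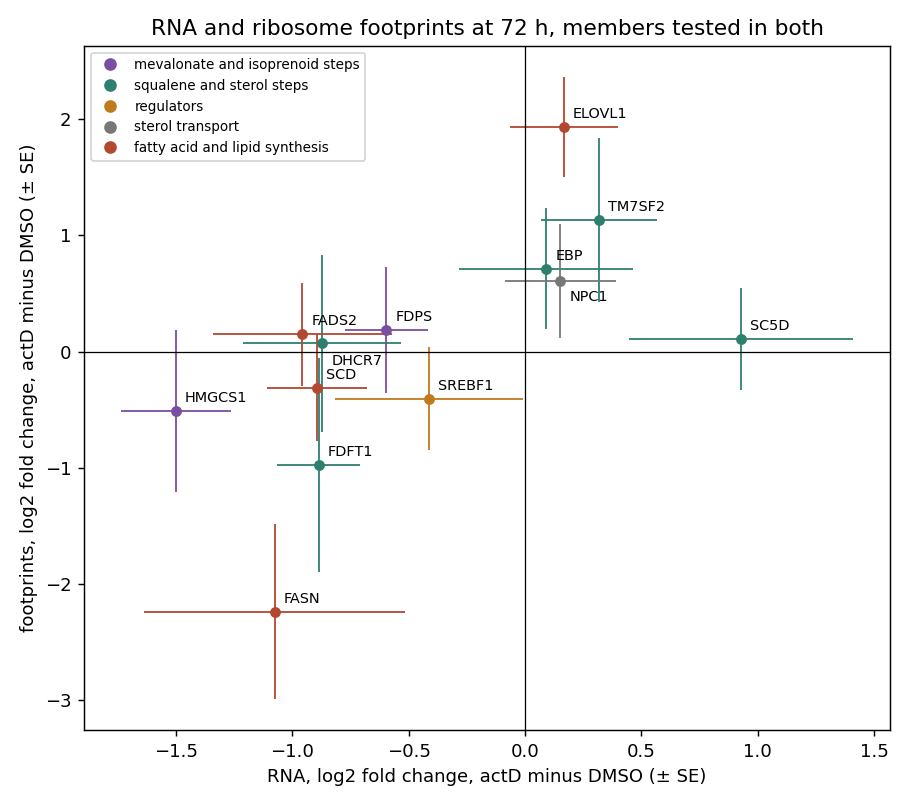
Log2 fold change, actD minus DMSO, in RNA (horizontal) and in footprints (vertical) at 72 h for the 13 members that passed the filter in both, with standard errors and coloured by role. FASN is lowest in footprints at -2.24 and ELOVL1 highest at 1.93; most vertical bars cross 0.

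At 6 h 0 of the 3 members were called in footprints (0% of all genes). At an unadjusted p under 0.05, 1 was lower (1.9% of all genes) and 0 higher (1.24% of all genes). FASN held 0, 0 and 8 counts in actD and 119, 28 and 11 in DMSO (edgeR adjusted p = 0.889). It passed the filter through its DMSO libraries, where it was high, so the count of 1 lower is description only. FDPS, which makes farnesyl diphosphate, held 0, 0 and 15 against 37, 15 and 4 counts, and SC5D held 22, 23 and 33 against 52, 45 and 15 counts (edgeR adjusted p = 0.889 for both). With library totals in place of the trimmed-mean scaling, the SC5D value turned from 0.25 to -0.37.
At 2 weeks, where the footprint labels do not conflict, 0 of 11 members were called (0% of all genes), 0 were lower at an unadjusted p under 0.05 (4.51% of all genes) and 1 was higher (4.07% of all genes). SC5D held 42, 40 and 51 counts in actD and 19, 36 and 20 in DMSO, or 47.8, 45.6 and 74.3 against 29.4, 32.4 and 30.2 CPM. The groups did not overlap (log2 fold change 0.86, SE 0.32; edgeR adjusted p = 0.562). SCD, with 67, 103 and 40 against 42, 98 and 45 counts, FASN, with 57, 42 and 12 against 38, 65 and 27, SREBF1, with 26, 25 and 13 against 23, 24 and 14, and FDFT1, with 21, 20 and 14 against 10, 20 and 17, overlapped between the groups. Their log2 fold changes lay between -0.27 and 0.20 (edgeR adjusted p = 0.811 to 0.998). DESeq2 called 0 members in any footprint or efficiency comparison. INSIG1 did not pass the filter in any footprint table, so its RNA difference at 2 weeks has no counterpart there.

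Translational efficiency, the footprint difference relative to the RNA difference, was fitted over the 12 libraries of a time point. By edgeR 0 members were called at 6 h (0% of all genes), 0 of 13 at 72 h (0.433% of all genes) and 0 of 11 at 2 weeks (0% of all genes). Without adjustment, 1 of 3 members was lower (2.31% of all genes) and 0 higher (2.94% of all genes) at 6 h, namely FASN. At 72 h 0 were lower (5.76% of all genes) and 1 higher (9.17% of all genes), ELOVL1, with a difference of 1.63 (SE 0.49; edgeR adjusted p = 0.151). FASN at 6 h and ELOVL1 at 72 h passed the footprint filter through the group where they were high, so these counts are description only. At 2 weeks 0 were lower (2.43% of all genes) and 0 higher (2.71% of all genes). The medians were -1.21, 0.44 and -0.065 on the log2 scale over 3, 13 and 11 members, against -0.026, 0.032 and -0.019 over all genes. With 3 members the 6 h median was the value of FDPS (edgeR adjusted p = 0.941), which held 0, 0 and 15 footprint counts in actD. The 2-week efficiency values use the RNA libraries with conflicting labels, and by the titles that median was 0.22. The 6 h median ran from -12.8 to -0.59 when 1 library was left out. At 72 h HMGCS1 had 0.83 (SE 0.71) and FASN -1.40 (SE 0.95), and neither was at the threshold.

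Other genes of these pathways were followed in 5 further lists. By edgeR 0 genes of any of them were called in RNA at 72 h, and the counts that follow are at an unadjusted p under 0.05, where 7.78% of all genes were lower and 5.27% higher. Among other sterol and isoprenoid enzymes FNTB, a farnesyltransferase subunit, was lower (-0.72; edgeR adjusted p = 0.309), as was CYB5R3, a cytochrome b5 reductase (-0.84; edgeR adjusted p = 0.338). Of 20 other fatty acid and lipid enzymes 5 were lower and 0 higher, with a median of -0.22, led by ME1, which supplies NADPH (-1.09; edgeR adjusted p = 0.293). Of 9 genes of sterol storage and efflux, which include targets of the sterol receptor LXR, 1 was lower, OSBP, an oxysterol-binding protein (-0.58; edgeR adjusted p = 0.292), and 0 were higher.
Of 10 genes of SREBP processing and turnover 2 were lower and 1 higher. SEC23A and SEC24A, subunits of the vesicle coat that carries SCAP out of the endoplasmic reticulum, had -1.09 and -0.99 (edgeR adjusted p = 0.235 and 0.260), and TRIB1 had 0.68 (edgeR adjusted p = 0.347). Of 12 genes of fatty acid oxidation all had a negative value, 3 at the threshold, with a median of -0.33. HADHA and HADHB, the subunits of the mitochondrial trifunctional protein, had -1.13 and -0.69 (edgeR adjusted p = 0.243 and 0.291), and CPT1A, which admits fatty acids to the mitochondrion, had -0.79 (edgeR adjusted p = 0.323). At 6 h the medians of the 5 lists lay between -0.014 and 0.068, and at 2 weeks, by library names, between -0.17 and 0.15.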

How the data were processed

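Total RNA and ribosome footprints of WiT49 cells were sequenced in 36 libraries. The authors deposited 1 table per assay and time point, holding an estimated count per gene that they made after alignment. HISAT2, StringTie and hg38 are named in the submitters' processing notes, without versions; the use of strand in counting is not given in the sources used here. In RNA at 6 h and 2 weeks a fragment was worth more than 1 count. All value columns were matched to a library. Members were matched by identifier to GENCODE release 29 and promoters to RefSeq (GRCh38.p14).

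The values, already whole, were tested with edgeR 4.0.16 (R 4.3.3): quasi-likelihood, two-sided, TMM scaling, filterByExpr, Benjamini-Hochberg adjustment over all genes, called under 0.05, 3 libraries against 3. CPM are counts-per-million of the scaled library, and SEs come from the log2 fold change and its F. The method was run on simulated counts with known changes and a single fixed spread for all genes. Spread differed between genes in the real libraries, so that run does not show how the method performs on them. Members and lists were chosen with earlier results of these data known. Values in every library are given for members called, for the 10 members in RNA at 72 h and the 5 at 6 h and 2 weeks with the largest log2 fold change over its SE, and for up to 5 members with the most footprints per time point; other lists name at most 3 genes. Alternatives were DESeq2 1.42.0, library totals, TMM from protein-coding genes, a looser filter (at least 10 counts in total), 1 fit over 3 time points, a replicate block, titles in place of library names, and each library left out. Counts limit precision: 3 counts is the limit that a 0 allows, counting error only, since copies made by PCR are not independent. An exact permutation test of 3 against 3 cannot go below 0.1. Some genes of the marker and pathway lists are not reported here.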

Additional observations from a re-analysis of the deposited data

Results flagged for a closer look

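In RNA, 4 members lay wholly below their controls at 72 h and wholly above them at 2 weeks by the library names, as did 0.341% of the 19641 genes tested at both times. INSIG1 had a log2 fold change of -1.51 at 72 h and 1.04 at 2 weeks, MSMO1 -1.03 and 0.17, SCD -0.89 and 0.20, and FADS1 -0.48 and 0.18. The difference between these time points was not tested, because the 2-week labels conflict. By the titles the 2-week values are lower in actD and the directions no longer oppose each other. The 2-week values of MSMO1, SCD and FADS1 were small (edgeR adjusted p = 0.673, 0.641 and 0.656). At 72 h the FADS1 groups almost touched, at 235.8 CPM in the highest actD library and 236.7 in the lowest DMSO library (edgeR adjusted p = 0.485).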

How the results depend on the processing

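The count of members called moved most with the model. In RNA at 72 h it was 9 with DESeq2 (608 of all genes called) and 14 with 1 fit over 3 time points (1212 genes), against 0 with edgeR on 6 libraries (1 gene) and under the other alternatives. The count lower at an unadjusted p under 0.05 ran from 17 to 23 over the alternatives (this count was added after seeing the data) and from 13 to 22 when a library was left out, and the count higher from 0 to 1, the 1 being SC5D without actD replicate 3. In the main fit 7.78% of all genes were lower at that threshold. Shares of all genes under the alternatives are not set beside the range from 17 to 23. DESeq2 called 1 member in RNA at 6 h (197 genes), 1 at 2 weeks (189 genes) and 2 in the difference between 72 h and 6 h (161 genes), where leaving out a library gave 0 to 1. In footprints at 72 h, 1 member (ELOVL1) was called with protein-coding scaling (2.14% of all genes higher) and with 1 fit over 3 time points (1.13%), and 0 to 1 when a library was left out. ELOVL1 passed the filter there through its actD libraries, where it was high. With library totals the median of all genes in RNA at 2 weeks moved from -0.024 to -0.18 and that of members from 0.035 to -0.12. There 23 members were lower and 11 higher, against 13 and 21. By the titles the member median was -0.035 in RNA and 0.22 in efficiency at 2 weeks, and INSIG1 had -1.04, ACACA 0.34, ELOVL1 -0.29, ACLY 0.42 and LPIN1 0.29. Values near 0 in footprints turned sign: SC5D at 6 h had -0.37 with library totals, and SREBF1 at 2 weeks had 0.021 with protein-coding scaling, 0.012 with the looser filter and 0.0047 with the replicate block. With 1 library left out, footprint values at 72 h ran from -0.55 to 0.064 for SCD, from -0.24 to 0.45 for SC5D and from -0.77 to 0.020 for SREBF1, and at 2 weeks from -0.18 to 0.36 for SCD, from -0.68 to 0.067 for FASN and from -0.15 to 0.27 for SREBF1. Leaving out a library moved the footprint medians between -6.81 and 0.38 at 6 h and between -0.15 and 0.23 at 2 weeks. It moved the efficiency median at 6 h between -12.8 and -0.59, with 0 to 1 member called. That member was FDPS, called without footprint actD replicate 3, and its other actD libraries held 0 counts. FDPS then passed the filter only through its DMSO libraries, where it was high, so this call is description only. The share of all genes called in that fit is not given here. The cause of these shifts was not tested.

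The labels do not say that a replicate number marks a shared culture. Deviations of each library from its group mean, gene by gene, were compared between same-numbered actD and DMSO libraries. In RNA at 72 h they correlated by 0.085, 0.23 and 0.15, each best with its own number. In RNA at 6 h they correlated by -0.077, -0.025 and -0.14, none best with its own number. At 2 weeks, by library names, the values were 0.081, -0.0037 and 0.18, with replicates 1 and 3 best with their own number. In footprints they ran from -0.74 at 6 h to 0.42 at 2 weeks. With the replicate block 20 members were lower at the unadjusted threshold in RNA at 72 h, the median was -0.60, and 0 members were called in any comparison. The share of all genes lower under that fit is not given here, and it was 7.78% in the main fit. Footprint depth limits what can be seen of the members, with 44 to 782 member counts per library.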
